A study of Mus musculus with 8 samples.

Results

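Hepatokines are proteins that the liver secretes into the blood, where they act on fat, muscle, brain or the liver itself. Messenger RNA of 9 such genes, of 24451 genes in the table, was examined in livers with and without Brap. The members were found by gene symbol: the stress hormones Fgf21 and Gdf15, the angiopoietin-like proteins Angptl4 and Angptl6, the fetuins Ahsg and Fetub, the activin subunit Inhbe, and the IGF-binding proteins Igfbp1 and Igfbp2. All 9 passed the filter on low values (a mean of 5 or more) and were among the 15352 genes tested. A normalized count is the number of reads on a gene divided by a factor that brings the libraries to a common depth.

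Poly(A) RNA of the left lobe of the liver was sequenced from 4 Brap LKO mice (Brap fl/fl; Alb Cre+) and from 4 Brap F/F mice, which carry the same floxed alleles without Cre. All 8 were C57BL/6 males, 18 wk old and fasted for 6 h, and the study describes chow feeding for its baseline mice. The albumin promoter drives Cre in hepatocytes (and in cells derived from their precursors), so other liver cells keep Brap, the gene of a ubiquitin ligase. Each library is 1 mouse, and the study calls its floxed controls littermates. The comparison asks whether deletion of Brap changed the messages for liver-derived hormones and binding proteins.

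Fgf21 and Inhbe are known targets of the nutrient and stress responses of hepatocytes, in which the factors PPARA and ATF4 act. Gdf15 also follows cell stress, and Angptl4 is a classic PPARA target. Igfbp1 is repressed by insulin and rises with fasting through FOXO factors, whereas Ahsg and Fetub are made constitutively by hepatocytes and leave the cell as abundant plasma glycoproteins.

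The sequences before the start sites are shown because Fgf21 and Inhbe had the strongest correlation among the 36 pairs of members, as described further on. That correlation did not pass adjustment over the pairs (exact permutation test, adjusted p = 0.255). The 250 bases before each RefSeq start (GRCm38.p6, the same coordinates as mm10) were searched on both strands for 5 words. These were TGATGCAA (a C/EBP-ATF composite site, TTGCATCA on the other strand), TGTTTAC (a FOXO site), CAAAACA (the core of the insulin response element), TGACGTCA (a CRE) and TATAAA, none of which contains another. Of the 9 members, 8 have 11 start sites in the table, and Angptl4 was not matched. In the lines that follow, capitals mark the C/EBP-ATF word of Fgf21 and Inhbe and the CAAAACA of Igfbp1, and other words are left in lower case.
Fgf21 site, chr7:45615611-45615640, minus strand: agacccccccaTTGCATCAtccgtccaggc
Inhbe site, chr10:127352011-127352040, minus strand: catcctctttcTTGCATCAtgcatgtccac
Igfbp1 site, chr11:7197668-7197696, plus strand: gagctcacaagCAAAACAaacttattttg
Fgf21 upstream stretch, chr7:45615491-45615740, minus strand: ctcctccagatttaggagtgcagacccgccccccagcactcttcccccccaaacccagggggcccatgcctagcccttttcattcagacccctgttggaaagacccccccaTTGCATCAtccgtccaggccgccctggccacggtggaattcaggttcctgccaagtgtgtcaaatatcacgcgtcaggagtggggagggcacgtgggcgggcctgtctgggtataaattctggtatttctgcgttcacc

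The C/EBP-ATF word lies 139 bases before the Fgf21 start and 181 bases before the RefSeq start of Inhbe. The Inhbe site is inside an exon of the GENCODE annotation, which places a start further upstream, whereas the Fgf21 site is outside exons. Over all 32851 promoter windows in the table, 260 (0.791%) hold this word. The Igfbp1 word CAAAACA lies 108 bases before its start and occurs in 5.56% of windows. The FOXO word, in 3.17% of windows, was found only before one start of Fetub among the members, and TATAAA, in 12.4%, before starts of Fgf21 and Fetub. The CRE word, in 508 of all windows, was in 0 of the members' windows. These are matches of letters and describe neither binding nor use of a site.

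The libraries held 26280884 to 33313914 reads on genes. Brap itself was 3988 ± 242 normalized counts in Brap LKO and 4186 ± 179 in Brap F/F livers (SD, n = 4 each; log2 fold change -0.07, SE 0.0676, limma adjusted p = 0.631). The floxed exons are 2 and 3, so a count over the whole gene does not check the labels. The Brap F/F livers fell into 2 pairs, replicates 1 and 4 and replicates 2 and 3. The chi-square per degree of freedom of their read counts was 41.5 and 27.8 within these pairs and 128 to 191 across them, against 13.1 to 53.3 among the Brap LKO livers. None of these pairs of livers of 1 group agreed within sampling noise. Hepatocyte markers were 9 genes, none of them at 0 in every liver. Their sums were 2288031 to 3070844 in Brap LKO and 2764826 to 3995980 in Brap F/F livers. Alb, 1 of the 9, alone took 5.17 to 7.41% of all normalized counts in Brap LKO and 6.45 to 9.34% in Brap F/F livers. It had the lowest log2 fold change of the list (-0.52). The list median was -0.10, with 3 genes above 0 and 6 below 0, and 0 passed a limma adjusted p of 0.05. Summed cholangiocyte markers were 1910 to 3757 in Brap LKO and 1130 to 2127 in Brap F/F livers, and stellate cell markers 7529 to 11805 and 4978 to 8656. Macrophage marker sums were 5076 to 8874 and 4962 to 6693. At a limma adjusted p under 0.05, passed by 0.769% of all tested genes in either direction, 1 of 7 tested cholangiocyte markers (Cftr) was higher in Brap LKO. So were 1 of 9 stellate cell markers (Pdgfrb) and 0 of 8 macrophage markers. Estimates were above 0 for 7, 8 and 7 of these markers, with median log2 fold changes of 0.95, 0.51 and 0.39. Over all tested genes the median was -0.01 and 51.96% of estimates were below 0. Their part in the results was not tested, and in bulk RNA fewer cells of a type and less RNA per cell cannot be told apart.

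None of the 9 members passed the threshold of an adjusted p under 0.05 (limma on log2(normalized count + 1), Benjamini-Hochberg over all tested genes). Over all tested genes 118 passed, 0.769%, of which 102 were higher and 16 lower in Brap LKO. At an unadjusted p under 0.05, the members were 2 of 9 (Angptl4 and Angptl6, both lower in Brap LKO), where 15.8% of all tested genes reached that level in either direction and 6.59% in the lower direction. On recovered reads, edgeR called 0 members past the adjusted threshold and DESeq2 also 0. The estimates were below 0 for 8 of 9 members and for 51.96% of all tested genes, with medians of -0.17 and -0.01. For 5 of the 9 members the 95% interval of the fold change lay between 0.5 and 2. For the others the data leave larger changes possible.

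**Figure D1:**
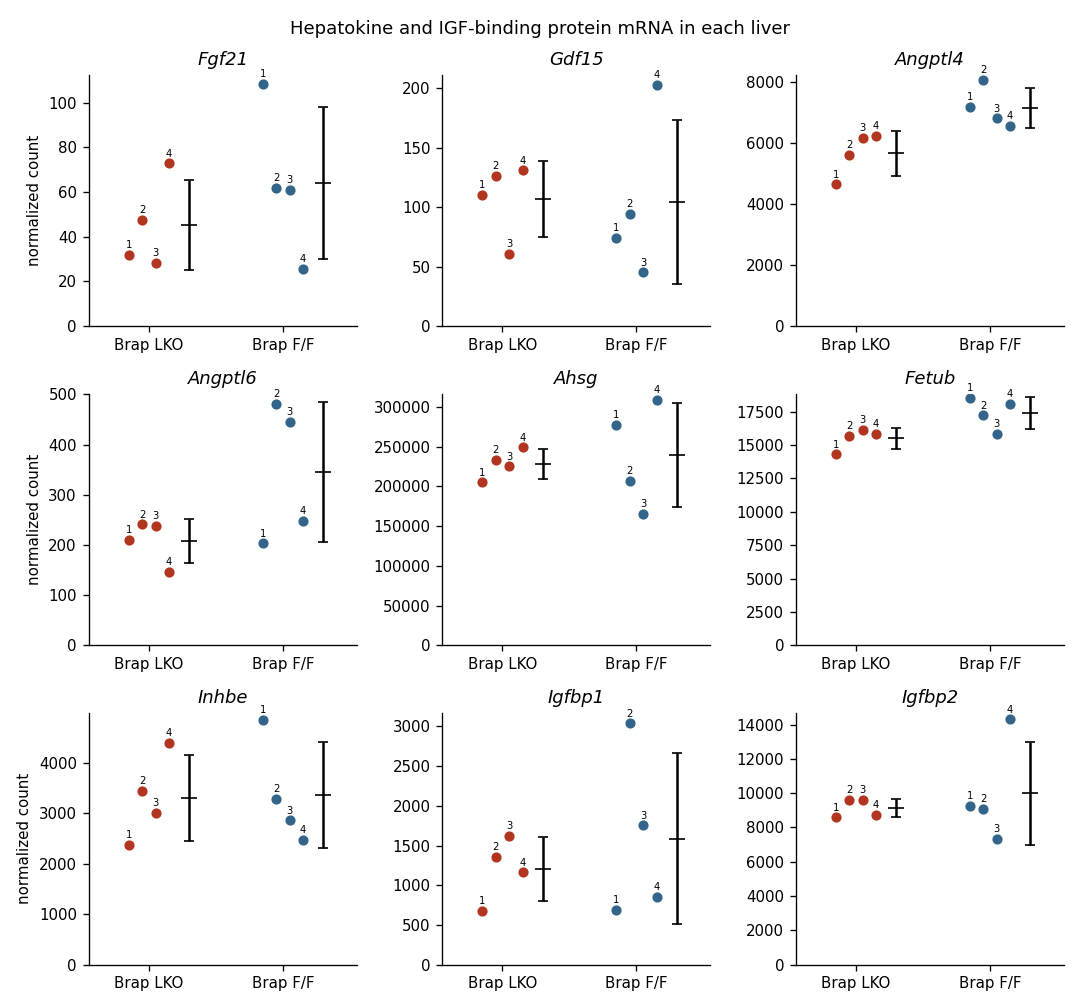
Normalized count (linear axis from 0) of each of the 9 genes in the 4 Brap LKO and 4 Brap F/F livers, with replicate numbers beside the points and the mean ± SD as a black bar. The groups overlap in every panel except that of Angptl4, where the Brap LKO livers end at 6229 and the Brap F/F livers begin at 6574.

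Angptl4 (ENSMUSG00000002289, chr17:33773750-33781830, minus strand) encodes a secreted inhibitor of lipoprotein lipase. Its normalized counts were 4648, 5607, 6174 and 6229 in Brap LKO livers 1 to 4 and 7193, 8067, 6811 and 6574 in Brap F/F livers 1 to 4. Every Brap LKO liver was below every Brap F/F liver, and Angptl4 was the only member of the 9 with groups that did not overlap, a pattern seen in the lower direction in 4.39% of all tested genes. The means were 5665 ± 734 and 7161 ± 655 (SD, n = 4 each), a fold of 0.791. The log2 fold change was -0.34 (SE 0.108, 95% interval -0.59 to -0.10), with a limma adjusted p of 0.181. The exact two-sided permutation test gave p = 0.0286, the smallest p that 4 against 4 livers allow. With the lower or higher series of animal numbers as a covariate the log2 fold change was -0.30 and the limma adjusted p was 0.395. With every library scaled to the same total the log2 fold change was -0.19 (limma adjusted p = 0.291). On that scale Brap LKO liver 4 was above Brap F/F livers 3 and 4, so the groups overlapped. The separation of the groups therefore holds for the deposited size factors only. With those factors the summed normalized counts were 27440741 to 28975099 in Brap LKO and 29964617 to 32729998 in Brap F/F livers.

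Angptl6 (ENSMUSG00000038742, chr9:20873808-20879727, minus strand) encodes a related secreted protein, also called angiopoietin-related growth factor. Normalized counts of Angptl6 were 210, 241, 238 and 147 in the Brap LKO livers and 203, 481, 446 and 248 in the Brap F/F livers. Brap F/F livers 2 and 3 stood above the other 6, and Brap F/F liver 1 lay within the Brap LKO range. The means were 209 ± 43.8 and 344 ± 139 (SD, n = 4 each), and the log2 fold change of -0.65 (SE 0.288, 95% interval -1.30 to -0.0036) had a limma adjusted p of 0.314 and an exact permutation p of 0.171. Of its exon bases, 265 (16.8%) overlap A230050P20Rik on the opposite strand, and since use of strand in counting was not given in the sources used here, reads of the 2 genes may be mixed.

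Fgf21 (ENSMUSG00000030827, chr7:45613886-45615490, minus strand) encodes the fasting and stress hormone that acts through FGFR1 with the co-receptor KLB. Its normalized counts were 31.9, 47.6, 28.3 and 72.8 in Brap LKO livers and 108, 62.0, 61.0 and 25.5 in Brap F/F livers. The highest and the lowest liver of all 8 were both Brap F/F, replicates 1 and 4. The means were 45.1 ± 20.2 and 64.2 ± 34.0 (SD, n = 4 each). The log2 fold change of -0.43 (SE 0.433, 95% interval -1.40 to 0.55) had a limma adjusted p of 0.652. These values rest on 26 to 95 reads a liver, for which counting error alone gives a coefficient of variation of 14.5% in Brap LKO and 12.9% in Brap F/F, against the 44.8% and 52.9% measured.

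Gdf15 (ENSMUSG00000038508, chr8:70629393-70632456, minus strand) encodes the stress-induced hormone that acts through the brainstem receptor GFRAL. Normalized counts of Gdf15 were 110, 127, 60.7 and 131 in Brap LKO livers and 74.1, 94.6, 45.2 and 203 in Brap F/F livers. Again the extremes of all 8 livers were both Brap F/F, here replicates 4 and 3. With means of 107 ± 32.2 and 104 ± 68.9 (SD, n = 4 each), Gdf15 was the only member with an estimate above 0. That log2 fold change was 0.19 (SE 0.423, 95% interval -0.76 to 1.14, limma adjusted p = 0.848), and it turned to -0.13 without Brap F/F replicate 3.

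Inhbe (ENSMUSG00000047492, chr10:127348857-127354411, minus strand) encodes the beta E subunit, which forms the hepatocyte-made activin E. Its normalized counts were 2367, 3441, 3001 and 4397 in Brap LKO livers and 4854, 3284, 2855 and 2469 in Brap F/F livers. Both groups spanned nearly the same range. The means were 3301 ± 853 and 3365 ± 1047 (SD, n = 4 each), with a log2 fold change of -0.02 (SE 0.230, 95% interval -0.53 to 0.50, limma adjusted p = 0.978).

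Ahsg (ENSMUSG00000022868, chr16:22891277-22899449, plus strand) encodes fetuin-A, a plasma protein that binds calcium phosphate and the insulin receptor. The normalized counts of Ahsg were 205110, 233270, 225340 and 249241 in Brap LKO livers and 277649, 207228, 165296 and 309078 in Brap F/F livers. The Brap F/F values lay on both sides of the Brap LKO range, with replicates 1 and 4 above it and replicate 3 below it. The means were 228240 ± 18346 and 239813 ± 65431 (SD, n = 4 each), and the log2 fold change was -0.03 (SE 0.239, 95% interval -0.57 to 0.51, limma adjusted p = 0.958). Ahsg took 0.811% of the summed normalized counts in Brap LKO and 0.769% in Brap F/F livers. Of its exon bases, 62 (2.82%) overlap Gm30505 on the opposite strand.

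Fetub (ENSMUSG00000022871, chr16:22918334-22939778, plus strand), the neighbour of Ahsg on the same strand, encodes fetuin-B, an inhibitor of the protease that hardens the egg coat. Its normalized counts were 14310, 15687, 16137 and 15835 in Brap LKO livers and 18523, 17216, 15842 and 18096 in Brap F/F livers. Only Brap F/F liver 3 fell inside the Brap LKO range. The means of 15492 ± 810 and 17419 ± 1184 (SD, n = 4 each) gave a log2 fold change of -0.17 (SE 0.0827, 95% interval -0.35 to 0.02). The limma adjusted p was 0.360 and the exact permutation p was 0.0571. The interval of the fold change ran from 0.782 to 1.01.

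Igfbp1 (ENSMUSG00000020429, chr11:7197782-7202546, plus strand) encodes the insulin-regulated binding protein that rises quickly with fasting. Its normalized counts were 679, 1357, 1625 and 1163 in Brap LKO livers and 686, 3041, 1756 and 855 in Brap F/F livers. Brap F/F liver 2 stood far above the rest, and the first replicate of each group was lowest. The means were 1206 ± 399 and 1584 ± 1079 (SD, n = 4 each), with a log2 fold change of -0.21 (SE 0.451, 95% interval -1.23 to 0.80, limma adjusted p = 0.844). Without Brap F/F replicate 2 the estimate was 0.19.

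Igfbp2 (ENSMUSG00000039323, chr1:72824503-72852474, plus strand) encodes an abundant hepatic binding protein that in mice follows leptin and growth hormone status. For Igfbp2 the normalized counts were 8590, 9598, 9616 and 8751 in Brap LKO livers and 9259, 9086, 7321 and 14298 in Brap F/F livers. The Brap LKO livers were close together, and Brap F/F livers 3 and 4 lay below and above all of them. The means were 9139 ± 545 and 9991 ± 3002 (SD, n = 4 each), and the log2 fold change was -0.09 (SE 0.175, 95% interval -0.48 to 0.31, limma adjusted p = 0.835). Without Brap F/F replicate 4 it was 0.10.

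**Figure D2:**
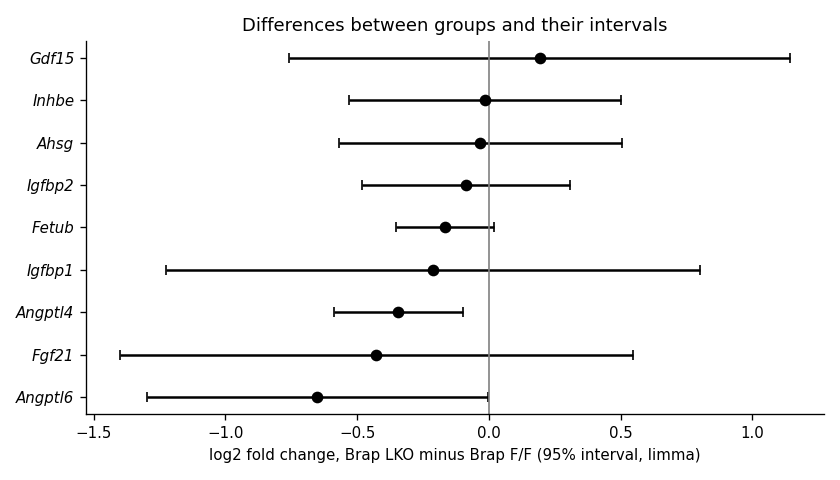
Log2 fold change (Brap LKO minus Brap F/F, horizontal axis) of each of the 9 genes as a point with its 95% interval from limma, ordered from lowest to highest. Only the intervals of Angptl4 and Angptl6 leave out 0 before adjustment, and Fgf21, Gdf15 and Igfbp1 have the widest.

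Levels between genes were compared per kilobase of exon. In Brap F/F livers the order of mean normalized counts per kilobase was Ahsg 109155, Fetub 8878, Igfbp2 5409, Angptl4 2022, Igfbp1 1039, Inhbe 633, Angptl6 218, Fgf21 67.5 and Gdf15 56.3. Ahsg thus ranked 16 among all genes of the table and Gdf15 8318. For Inhbe the divisor was 5319 exon bases of GENCODE, whose start lies upstream of the RefSeq start. The level and place of Inhbe therefore depend on that annotation. The ranges of neighbours in this order overlapped between Angptl4 and Igfbp1, between Igfbp1 and Inhbe, and between Fgf21 and Gdf15. In Brap LKO livers the neighbours that overlapped were Igfbp1 with Inhbe and Fgf21 with Gdf15.

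The coefficient of variation was larger in Brap F/F than in Brap LKO livers for 8 of 9 members, the exception being Angptl4 with 9.15% and 13.0%. Over all tested genes it was larger in Brap F/F livers for 64.1%, so a wider spread of the control livers was general in this table. For Igfbp2 the highest liver was 1.95 times the lowest in Brap F/F and 1.12 times in Brap LKO. For Ahsg the coefficients were 27.3% in Brap F/F and 8.04% in Brap LKO. For Igfbp1 they were 68.1% and 33.1%, and for Gdf15 66.1% and 30.1%. Fetub was the steadiest, with 6.80% and 5.23%. No Brap LKO liver held the highest value of any member, and Brap LKO liver 1 held the lowest value of 4 members. For Igfbp1, 1 of these, it was 679 against 686 in Brap F/F liver 1. The same counts were not made over all tested genes, so whether they are particular to the members is not known. Igfbp1 and Angptl6 were higher in Brap F/F replicates 2 and 3 than in replicates 1 and 4, and Ahsg, Fetub and Igfbp2 were lower, whereas Fgf21, Gdf15, Angptl4 and Inhbe did not split by these pairs.

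**Figure D3:**
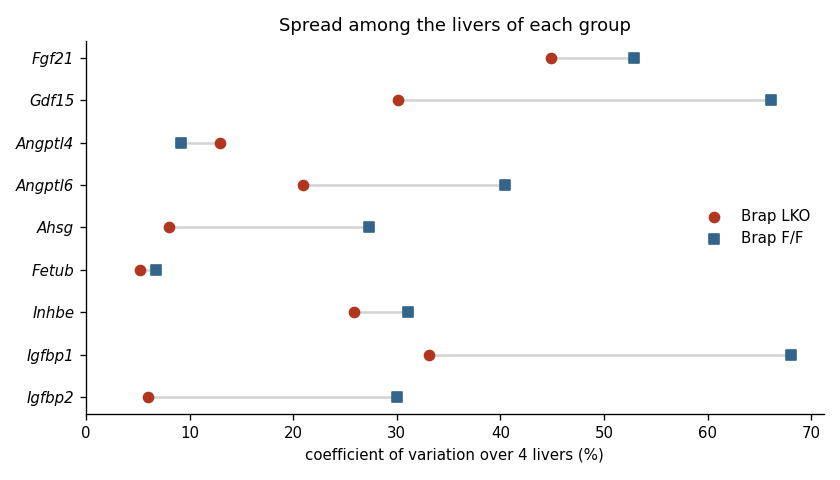
Coefficient of variation (%, horizontal axis) over the 4 livers of each group for each gene, Brap LKO as red circles and Brap F/F as blue squares. The Brap F/F value is the larger for every gene except Angptl4.

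Among the 36 pairs of members, the Pearson correlation over the 8 livers (log2 values, exact permutation tests) reached an unadjusted p under 0.05 in 5 pairs and an adjusted p under 0.05 in 0. The strongest was Fgf21 with Inhbe, at r = 0.851 (n = 8, exact permutation p = 0.00816, adjusted 0.255) and rho = 0.786 (exact permutation p = 0.0279, adjusted 0.503). Without the 2 livers farthest from the median of Fgf21, r was 0.673. Within the 4 Brap LKO livers r was 0.880 and within the 4 Brap F/F livers 0.906, groups too small for a test. These are the pair whose C/EBP-ATF letters are printed above, and no relation between the letters and the levels was tested. Angptl4 with Fetub gave r = 0.783 and rho = 0.786 (n = 8, exact permutation p = 0.0213 and 0.0279, adjusted 0.255 and 0.503), with 0.678 without the 2 farthest livers, 0.968 within Brap LKO and 0.019 within Brap F/F livers. Gdf15 with Igfbp2 gave r = 0.735 and rho = 0.357 (n = 8, exact permutation p = 0.0391 and 0.389, adjusted 0.334 and 0.779), and -0.490 without the 2 farthest. Ahsg with Igfbp2 gave r = 0.819 and rho = 0.714 (n = 8, exact permutation p = 0.0174 and 0.0576, adjusted 0.255 and 0.625), but r fell to 0.235 without the 2 farthest livers, so that relation rests on them. Angptl6 with Igfbp1 gave r = 0.720 and rho = 0.690 (n = 8, exact permutation p = 0.0463 and 0.0694, adjusted 0.334 and 0.625), and 0.10 without the 2 farthest. Within Brap LKO and within Brap F/F livers, r was -0.490 and 0.978 for Gdf15 with Igfbp2 and 0.220 and 0.860 for Ahsg with Igfbp2. For Angptl6 with Igfbp1 it was 0.241 and 0.964, so these relations were seen mainly among the Brap F/F livers.

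**Figure D4:**
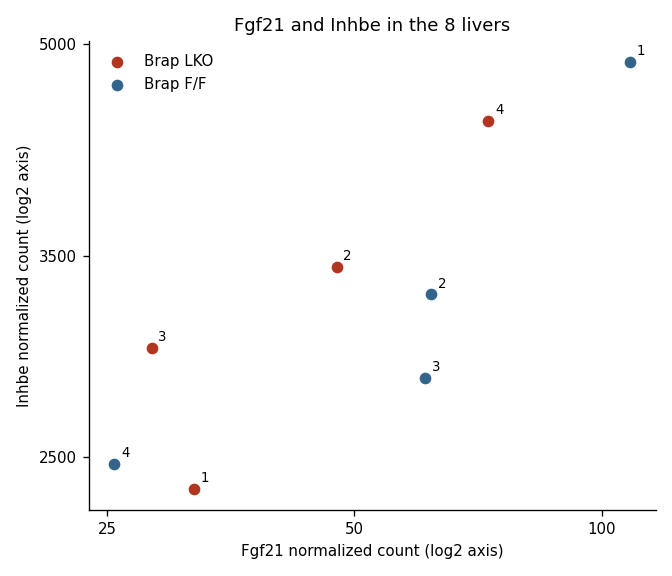
Normalized counts of Fgf21 (horizontal) and Inhbe (vertical) on log2 axes in the 8 livers, with replicate numbers, Brap LKO in red and Brap F/F in blue. Brap F/F liver 1 and Brap LKO liver 4 are high for both genes, and Brap F/F liver 4 and Brap LKO liver 1 are low for Inhbe with Fgf21 at 25.5 and 31.9.

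The genes most alike to each member were taken as the 2 with the highest Pearson r of deviations from the group means over the 8 livers, among 12754 genes. With so many genes and 8 points, high values arise easily, and they are given as a description. They were Mtnr1a (0.969) and Cacybp (0.966) for Fgf21, Rnf111 (0.976) and Ints11 (0.971) for Gdf15, and Chmp2a (0.973) and Bccip (0.971) for Angptl4. For Angptl6 they were Mapt (0.995) and Urb1 (0.993), for Ahsg C730027H18Rik (0.991) and Serpina1e (0.990), and for Fetub Mrpl20 (0.997) and Fbxo8 (0.979). For Inhbe they were Stk16 (0.986) and Ttc13 (0.971), for Igfbp1 Slc25a47 (0.980) and Tecr (0.979), and for Igfbp2 Metap1d (0.992) and Trf (0.989). Inhbe ranked 23 for Fgf21, with an r of 0.891.

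Genes that act with the members were read in the same comparison. Beside the counts of each list stands the share of all tested genes that passed, 0.769% in either direction. Groups that do not overlap were seen in 5.48% of all tested genes in the higher and 4.39% in the lower direction. Of 15 tested IGF axis genes, 1 rose and 0 fell. It was Igfbp7, a secreted protein with low affinity for IGFs, at 2572, 2193, 2617 and 2399 normalized counts in Brap LKO and 1220, 1739, 1761 and 1533 in Brap F/F livers. All 4 Brap LKO livers were above all 4 Brap F/F livers, as in 5.48% of tested genes in that direction. Its log2 fold change was 0.66 (SE 0.120, limma adjusted p = 0.0481), and leaving out any 1 liver gave an adjusted p of 0.0555 to 0.165, so the call is lost without any one of them. Over all 23 other settings Igfbp7 passed in 12. The median log2 fold change of the IGF axis was 0.10.

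Of 13 tested activin, inhibin, antagonist and receptor genes, 1 rose and 0 fell. Fstl1, a secreted follistatin-like glycoprotein, was 217, 164, 257 and 250 in Brap LKO and 94.6, 77.3, 120 and 123 in Brap F/F livers. The groups did not overlap, and the log2 fold change was 1.09 (SE 0.192, limma adjusted p = 0.0435). The call held in 2 of 8 fits that left out 1 liver, with adjusted p from 0.0346 to 0.148. Over all 23 other settings it held in 14. Stellate cells and fibroblasts are known to make Fstl1. The stellate marker Pdgfrb was also higher in Brap LKO (log2 fold change 0.91, limma adjusted p = 0.0494), a call that held in 1 of 8 fits without 1 liver. Of 9 tested markers of these cells, only Pdgfrb passed, 8 had estimates above 0 and Lrat was at -0.12. The part of these cells in the Fstl1 value was not tested. The list's median was 0.17.

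Of 8 tested FGF21 and GDF15 receptor and ligand genes, 0 passed. The largest estimate was that of Fgfr1, the FGF21 receptor, at 1147, 1330, 1251 and 1073 normalized counts in Brap LKO and 553, 251, 276 and 700 in Brap F/F livers. The groups did not overlap. The log2 fold change of 1.56 (SE 0.302) had a limma adjusted p of 0.0560, just short of the threshold, and DESeq2 on recovered reads gave 0.000201. It passed in 6 of 23 other settings, 1 of them without Brap F/F replicate 4 (limma adjusted p = 0.0164). The median of this list was 0.23.

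Of 9 tested angiopoietin-like and lipase genes, 0 passed. Lpl, the lipase that ANGPTL4 inhibits, had the largest estimate, at 683, 732, 602 and 883 normalized counts in Brap LKO and 251, 345, 288 and 548 in Brap F/F livers. Every Brap LKO liver was above every Brap F/F liver, and the log2 fold change was 1.07 (SE 0.225, limma adjusted p = 0.0709, and 0.0117 without Brap F/F replicate 4). It passed in 7 of 23 other settings, among them the replicate block, the animal series covariate and DESeq2 (adjusted p = 0.00175). The median of the list was 0.02 and changed sign between -0.07 and 0.18 over 23 other settings. The 4 tested fetuin and type 3 cystatin family genes all had estimates below 0, with a median of -0.15 that ran from -0.17 to 0.0052 over those settings. The largest was Cst3, cystatin C, at -0.19 (limma adjusted p = 0.299).

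Of 22 tested other hepatokines, 1 rose and 1 fell, where 0.769% of all tested genes passed in either direction. Gpnmb, a glycoprotein shed by hepatocytes and also made by macrophages, was 31.0, 17.8, 32.4 and 36.4 normalized counts in Brap LKO and 3.42, 6.10, 3.15 and 11.8 in Brap F/F livers (log2 fold change 2.20, SE 0.401, limma adjusted p = 0.0480). In Brap F/F livers 1 and 3, 1 read equals 1.14 and 1.05 normalized counts, so the Brap F/F values of Gpnmb rest on few reads. Of 8 macrophage markers 7 had estimates above 0 and 0 passed, and the part of these cells in the Gpnmb value was not tested. Smoc1, a secreted matricellular protein that lowers blood glucose, was 3722, 4286, 3965 and 3894 in Brap LKO and 4859, 5840, 5301 and 5209 in Brap F/F livers (log2 fold change -0.42, SE 0.0762, limma adjusted p = 0.0481). Neither gene had overlapping groups. Over all other settings, Gpnmb passed in 11 of the 22 that tested it and Smoc1 in 7 of 23. Without 1 liver the adjusted p ran from 0.0164 to 0.165 for Gpnmb and from 0.0515 to 0.168 for Smoc1, and of these fits only that without Brap F/F replicate 4 kept a call, for Gpnmb. The median of the list was -0.05 and changed sign between -0.20 and 0.11 over the other settings.

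The upstream regulators were read through their other target genes. Of 17 tested PPARA targets, 0 passed in either direction. Estimates were below 0 for 16 of them and for 51.96% of all tested genes, with medians of -0.32 and -0.01. Over 23 other settings, 13 to 17 of the PPARA targets were below 0. The median of the PPARA targets stayed between -0.56 and -0.16 over those settings. Without Brap F/F replicate 4 the number that passed was 7, in a fit that called 232 of the 15352 genes in place of 118. Leaving out any other liver gave 0. The largest estimate was that of Cyp4a14, a fatty acid omega-hydroxylase, at 1323, 2007, 3462 and 3965 normalized counts in Brap LKO and 9235, 45700, 31815 and 707 in Brap F/F livers. Brap F/F liver 4 was the lowest of all 8 and the other 3 Brap F/F livers the highest, with a log2 fold change of -2.01 (SE 1.13, limma adjusted p = 0.415, and 0.0346 without Brap F/F replicate 4).

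Of 17 tested genes of the ATF4 and integrated stress response, 0 passed, with 10 estimates below 0 and a median of -0.07 that changed sign between -0.16 and 0.07 over the other settings. The largest was Vldlr, the very low density lipoprotein receptor, at -1.25 (SE 0.781, limma adjusted p = 0.462). Of 13 tested insulin and FOXO1 fasting targets, 0 passed and 10 were below 0 (7 to 10 over the other settings), with a median of -0.18. The largest was Tat, tyrosine aminotransferase, at -0.86 (SE 0.345, limma adjusted p = 0.277).

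**Figure D5:**
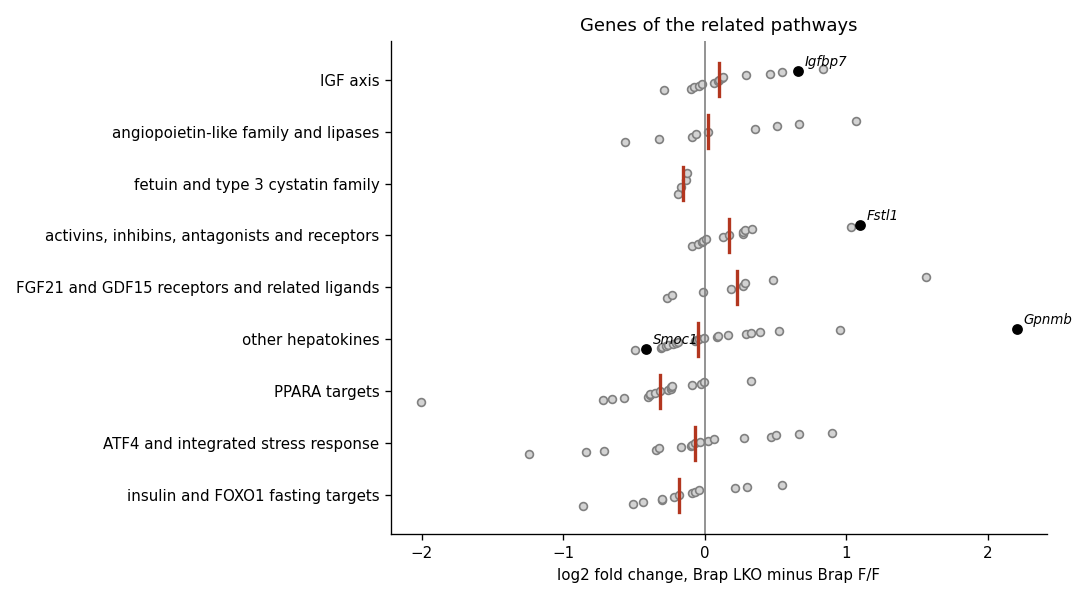
Log2 fold change (Brap LKO minus Brap F/F, horizontal axis) of every tested gene of the 9 lists. Grey points did not pass an adjusted p of 0.05, black points did and are named, and red bars are list medians, the lowest of which is that of the PPARA targets at -0.32.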

How the data were processed

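Liver samples were grouped by the genotype in the labels, 4 in each group. RNA was prepared for sequencing with a NuGEN poly(A) library kit. Per the labels and methods, reads were checked with FastQC and aligned to mm10 with STAR (2.6.0c). The counting tool, annotation release and use of strand are not given in the sources used here. The signal deposited by the authors is the read count of each gene divided by the size factor that DESeq2 gave its library. The authors' own comparison columns (log2 fold changes, ratios, p-values) were deposited too and were not used.

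All values (100%, relative tolerance 0.001) were whole multiples of 1 read, so reads were recovered: 26280884 to 33313914 a liver over 24451 genes. The test was limma 3.58.1 with trend on log2(normalized count + 1), for genes with a mean of at least 5 (15352), with Benjamini-Hochberg adjustment. edgeR 4.0.16 and DESeq2 1.42.0 on recovered reads were alternatives, and sva 3.50.0 gave 1 surrogate variable. Single genes had exact two-sided permutation tests over 70 arrangements. The fits were tested on simulated data. Genes were matched to GENCODE M21 (24430 of 24451 found), and promoter sequence is RefSeq's for GRCm38.p6.

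The members and lists were chosen with earlier results of these data known. Named genes were all members, Brap, each list gene past the threshold, the largest estimate of a list with none, and the 2 genes most alike to each member. Pdgfrb and the place of Inhbe among the genes like Fgf21 were added after their values were seen. The lower and higher series are ranges of the animal numbers in the labels, and they are unbalanced: 3 of 4 Brap LKO mice are in the lower and 3 of 4 Brap F/F mice in the higher series. P-values of the group comparisons set the difference between groups against the spread between these mice. Genotype and animal series cannot be fully told apart in it.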

Additional observations from a re-analysis of the deposited data

How the results depend on the processing

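Under 23 alternatives 0 members passed the threshold. Angptl4, Angptl6, Fetub and Fgf21 stayed below 0 in all of them. Angptl4 ran from -0.39 to -0.19, with limma, edgeR or DESeq2 adjusted p from 0.0927 to 0.395, and Angptl6 from -0.87 to -0.46. Fetub ran from -0.21 to -0.011, the latter with the same total per liver (adjusted p = 0.954), and Fgf21 from -0.80 to -0.12, both on leaving out 1 liver. The other 5 changed sign somewhere. With quantile normalization the log2 fold change was 0.11 for Ahsg, 0.068 for Inhbe and 0.0081 for Igfbp2. With the same total per liver, which moved the median of all genes to 0.15, it was 0.13, 0.14 and 0.071. With array weights it was 0.070 for Ahsg and 0.021 for Igfbp2. Igfbp1 was 0.11 with the animal series and 0.021 with 1 surrogate variable. Leaving out 1 liver gave -0.13 to 0.58 for Gdf15, -0.20 to 0.10 for Ahsg, -0.17 to 0.18 for Inhbe, -0.53 to 0.19 for Igfbp1 and -0.22 to 0.10 for Igfbp2. The cause of these changes was not tested.

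The number of genes higher in Brap LKO was 62 with quantile normalization, 459 with the same total per liver, 185 with array weights, 455 with DESeq2, 490 with 1 surrogate variable and 11 to 178 without 1 liver. The number lower was 9 with a mean of at least 20, 39 with array weights, 170 with DESeq2, 245 with 1 surrogate variable and 4 to 54 without 1 liver, the highest both times without Brap F/F replicate 4. Samples with the same replicate number share only that number: the correlations of their deviations were -0.13, 0.0034, 0.20 and 0.29, and a replicate block gave 80 higher, 15 lower and 0 members. Counting error was smaller than the spread between livers for Fgf21 and Gdf15, the members with the fewest reads. For Gdf15 it gave a coefficient of variation of 9.37% in Brap LKO and 9.90% in Brap F/F livers, against 30.1% and 66.1% measured. The effect of depth on their precision was not tested.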
